A study of Mus musculus with 29 samples.

Results

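Sites with Pou4f3 peaks in the summit lists of the lines without an Atoh1 transgene, with none in those of the lines that carried Atoh1 beside Pou4f3 and with no Atoh1 peak in any list, made up 1830 of the 78408 sites at which at least 1 of 9 ChIP-seq peak lists had a summit, or 2.33% of them. Around each summit of all 9 lists a window of 300 bp was laid, and windows with 1 bp or more in common were merged to a site. Sites were selected on the presence and absence of peaks, and a site was chosen when it held a Pou4f3 peak in both iPou4f3 and iG+P cells, no Pou4f3 peak in iP+A or iGPA cells, and no Atoh1 peak in any of the 4 Atoh1 lists. They are called restricted sites here, a name that refers to membership of lists and to nothing else. The presence of Pou4f3 peaks and the fold enrichment in the lists of iPou4f3 and iG+P cells are described without a test, whereas their sequence and their position played no role in the choice, and their Gfi1 peaks a role only in the joining of windows.

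The peaks come from mouse embryonic stem cell lines derived from the A2loxCre line, in which doxycycline switches on an inserted cassette, and the study asked how Atoh1, Pou4f3 and Gfi1 share genomic sites when they are expressed together. iPou4f3 cells carried Pou4f3 and the Venus reporter, iG+P cells Gfi1, Pou4f3 and Venus, iP+A cells Pou4f3, Atoh1 and Venus, and iGPA cells all 3 factors with Venus. Atoh1 lists also came from iAtoh1 cells, with Atoh1 and Venus, and iG+A cells, with Gfi1, Atoh1 and Venus. All were studied as embryoid bodies at day 6 after 2 µg/ml doxycycline for 48 h, so every list comes from induced cells. Pou4f3 was precipitated through a MYC tag, Atoh1 through a FLAG tag, and Gfi1, in iGPA cells only, with an antibody to the protein. Each list other than that of Gfi1 (1 library) merges 2 replicates, which the study's design describes as different clones, against merged input DNA. No replicate has values of its own, so no test over replicates can be made, and a difference between lines cannot be told apart from a difference between clones or between immunoprecipitations. Intervals below cover counting error over sites only, and neighbouring sites are not independent.

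Pou4f3 belongs to the POU homeodomain family, whose members bind AT-rich DNA through a POU-specific domain and a homeodomain, and it is needed for the survival and maturation of hair cells of the inner ear. Atoh1 is a basic helix-loop-helix factor that binds E-boxes and starts hair cell as well as neuronal differentiation. Gfi1 is a zinc-finger factor best known as a transcriptional repressor.

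Sequences of 120 bp around the iPou4f3 summit show the kinds of DNA found at restricted sites. All are the plus strand of mm9. The first 5 rank high by the lower of their 2 fold enrichments (those of iPou4f3 and iG+P cells), among all restricted sites or, for Uvrag and Dsp, among those with an exact match, and capitals mark ATAATTAAT or its reverse, the pattern searched for Pou4f factors, in Olfml1 with 1 mismatch. In the Epha7 site, within 1 kb of a transcription start, capitals mark CpG dinucleotides. In the Mpdz site capitals mark the first unit of a tandem repeat. In the Dpp6 and Gm17316 sites they mark a 20-letter word that many Pou4f3 sites shared. The site upstream of Coro1b is no restricted site but one with Pou4f3 peaks in all 4 lines, shown for contrast, with the 8-letter word TGCATTAT in capitals.
5033430I15Rik (chr13:46139523-46139642, intergenic): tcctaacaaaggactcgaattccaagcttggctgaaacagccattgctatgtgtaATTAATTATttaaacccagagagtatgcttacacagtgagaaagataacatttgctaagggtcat
Lrch3 (chr16:32950637-32950756, intron): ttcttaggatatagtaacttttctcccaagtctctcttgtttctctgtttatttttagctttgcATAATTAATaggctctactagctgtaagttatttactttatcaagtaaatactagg
Uvrag (chr7:106239603-106239722, intron): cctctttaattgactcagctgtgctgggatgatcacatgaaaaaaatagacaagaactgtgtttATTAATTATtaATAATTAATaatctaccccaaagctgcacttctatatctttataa
Dsp (chr13:38282836-38282955, intron): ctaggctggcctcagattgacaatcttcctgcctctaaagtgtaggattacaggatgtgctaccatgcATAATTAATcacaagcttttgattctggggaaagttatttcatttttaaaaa
Olfml1 (chr7:114712925-114713044, intron): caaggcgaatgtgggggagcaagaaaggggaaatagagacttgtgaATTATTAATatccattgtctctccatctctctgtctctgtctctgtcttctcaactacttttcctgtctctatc
Epha7 (chr4:28740963-28741082, intron): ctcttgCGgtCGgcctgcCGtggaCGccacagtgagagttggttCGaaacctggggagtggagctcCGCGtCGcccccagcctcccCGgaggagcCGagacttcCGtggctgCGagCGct
Mpdz (chr4:80975658-80975777, intron): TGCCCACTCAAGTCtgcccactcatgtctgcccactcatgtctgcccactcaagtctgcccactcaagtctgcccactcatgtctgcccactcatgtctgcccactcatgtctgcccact
Dpp6 (chr5:27226616-27226735, intron): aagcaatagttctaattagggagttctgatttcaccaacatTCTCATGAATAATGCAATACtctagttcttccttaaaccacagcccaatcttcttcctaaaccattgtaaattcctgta
Gm17316 (chr8:103476880-103476999): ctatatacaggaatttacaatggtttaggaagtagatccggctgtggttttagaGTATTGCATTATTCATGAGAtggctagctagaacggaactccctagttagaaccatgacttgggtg
Coro1b (chr19:4148053-4148172, intergenic): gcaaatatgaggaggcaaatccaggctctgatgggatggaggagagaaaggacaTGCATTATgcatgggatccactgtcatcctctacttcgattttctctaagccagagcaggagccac

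In the order of the rule, 14015 sites had a Pou4f3 peak in both iPou4f3 and iG+P cells, and 5562 of these had none in iP+A cells, 4135 none in iGPA cells and 2714 none in either. Atoh1 peaks lay at 884 of the 2714, which left the 1830 restricted sites, 13.1% of the 14015. They were 8.24% of the joined iPou4f3 sites and 5.76% of the joined iG+P sites. Of the 4135 sites without a Pou4f3 peak in iGPA cells 65.6% lacked one in iP+A cells, and of the 9880 sites with one 28.8% did.

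Further kinds of site without an Atoh1 peak serve for comparison. Shared sites had Pou4f3 peaks in all 4 lines and numbered 5208. Reverse sites had them in iP+A and iGPA cells only and numbered 219, fewer than the restricted sites. The rule shapes both counts, since sites with an Atoh1 peak were dropped. With such a peak there were 476 further sites of the reverse pattern and 884 of the restricted pattern. Reverse sites were not counted with Pou4f3 lists of equal length. The third kind is made up of sites in other combinations of the 4 lists, of which 2506 lacked the peak in iP+A cells alone and 718 in iGPA cells alone. The lists themselves were unequal in length, with 22433 peaks in iPou4f3 and 32632 in iG+P cells but 17082 in iP+A and 18751 in iGPA cells. When the 4 Pou4f3 lists were cut to the length of the shortest by −log10 p, 603 restricted sites remained by count, and with −log10 p of at least 10 asked of every list there were 478.

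**Figure D1:**
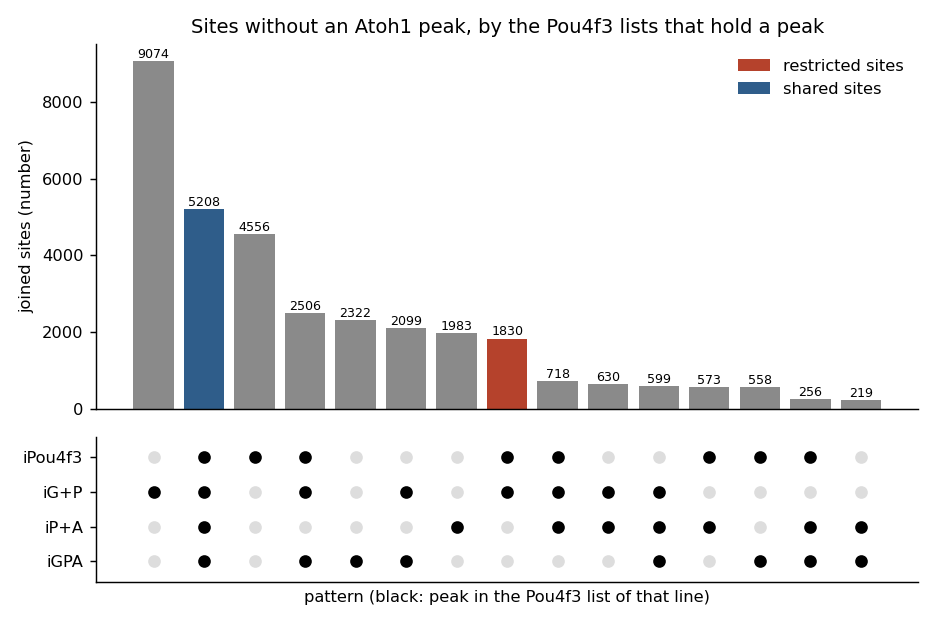
Number of joined sites without an Atoh1 peak (vertical axis) for each combination of the 4 Pou4f3 lists, with black dots under a bar marking the lines whose list held a peak. The 1830 restricted sites (red) compare with 5208 shared sites (blue) and 219 sites found in iP+A and iGPA cells only (last bar).

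Enrichment at restricted sites was modest in both lists that chose them. In iPou4f3 cells the fold enrichment over local background had a median of 3.20, quartiles of 2.85 and 3.55 and a range of 1.99 to 8.44. In iG+P cells its median was 2.85, with quartiles of 2.63 and 3.17 and a highest value of 5.48. The medians sat at percentiles 41.6 and 43.2 of the respective lists, whereas shared sites had median fold enrichments of 4.87 and 4.60. Recovered from fold and p, the restricted sites had a median of 26 fragments at the summit over a local background of 7.41 in iPou4f3 cells, and 25 over 8.14 in iG+P cells. Their lowest counts were 19 and 20. These are also the fewest of any peak of those lists at the usual background, so they reflect the listing of peaks.

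**Figure D2:**
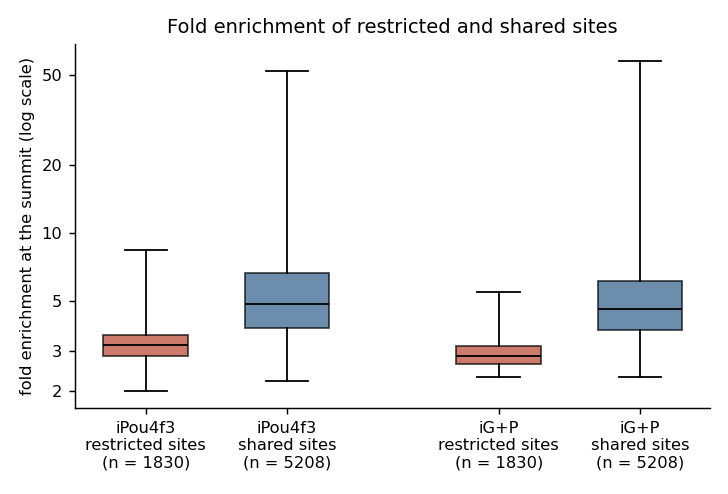
Fold enrichment at the summit (log scale) of restricted sites (red) and shared sites (blue) in the 2 lists that chose both, with the box from lower to upper quartile, the line at the median and whiskers to the lowest and highest value. Medians of restricted sites were 3.20 and 2.85 against 4.87 and 4.60.

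The iPou4f3 and iG+P summits of a restricted site were a median of 34.5 bp apart, and 61.5% lay within 50 bp of each other. At shared sites the median was 16 bp and the share 87.3%, -25.7 percentage points apart. Among sites of similar iPou4f3 fold enrichment the gap was -6.00 points under 3, -12.3 points from 3 to 4 and -14.5 points at 4 or more. The summits come from the lists that chose the sites, so these values carry no test. At 175 restricted sites (9.56%) the summits were over 150 bp apart, against 1.40% of shared sites.

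Absence from a summit list did not always mean that no peak had been called. The authors' full peak calls held Pou4f3 peaks, left out of the summit lists, at 103 restricted sites in iP+A cells and at 38 in iGPA cells. Either was present at 131 sites, 7.16% (6.02 to 8.44), where 4.84% was the share over all 16374 sites with none of the 6 absent peaks. Left-out Atoh1 peaks lay at 91 restricted sites, 4.97% (4.02 to 6.07), where the share over those 16374 sites was 7.14%. That share depends on the mix of sites. It was 3.75% (3.22 to 4.35) at sites of the iPou4f3 list alone and 9.57% (8.97 to 10.2) at those of the iG+P list alone, and restricted sites lay between. In all 184 restricted sites had a left-out peak in at least 1 of the 6 lists, and 1646 had none. The left-out Pou4f3 peaks at restricted sites had fold enrichments from 2.12 to 3.62 (median 2.72) in iP+A cells and from 2.22 to 3.93 (median 3.06) in iGPA cells. Just outside the rule, the 3224 sites with a listed Pou4f3 peak in exactly 1 of these lines had fold enrichments there from 2.36 upward, with a median of 3.93. A restricted site without a called peak has no value in iP+A or iGPA cells, and enrichment under the calling threshold was not measurable from the lists.

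By position restricted sites fell into a promoter set and a distal set. The summit lay within 1 kb of a transcription start at 502 of them, 27.4% (25.4 to 29.5), against 9.14% (8.37 to 9.96) of shared sites and 10.5% (6.77 to 15.3) of reverse sites. The difference from shared sites was 18.3 points (16.1 to 20.5). It was present at every level of iPou4f3 fold enrichment, at 13.5 points (7.89 to 18.6) under 3, 15.5 (12.3 to 18.7) from 3 to 4 and 22.2 (15.8 to 29.3) at 4 or more. Sites in UTRs made up 8.09% of restricted and 2.30% of shared sites, and other exons 4.75% and 1.42%, whereas introns held 44.4% and 47.4% and intergenic DNA 42.8% and 48.8%. Sites over 50 kb from any start were 19.9% of restricted sites, 26.9% of shared and 38.4% of reverse sites.

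The 502 promoter sites were rich in G and C, with a median GC content of 66.8% in 250 bp against 39.6% at the 1328 distal restricted sites. The 476 shared promoter sites had a median of 47.2%. In the Epha7 site printed above, 547 bp downstream of a start, 13 CpG dinucleotides stood in 120 bp. The 6-letter words with the largest excess over shared sites were all of this composition, led by GCGGCC, present in the 250 bp of 15.1% of restricted and 3.25% of shared sites. CGCCGC was at 13.9% and 2.28%, GCCGCC at 15.0% and 3.74%, CGCGGC at 13.2% and 2.13%, and CCGCCG at 13.01% and 2.19%. AGNNGGCGC, the core of the CTCF motif, lay in 12.4% of promoter restricted and 5.67% of promoter shared sites, a difference of 6.68 points (3.11 to 10.3). At distal sites it lay in 1.66% and 0.80%. The word is itself rich in G and C, and the 2 promoter sets differ in GC content (66.8% against 47.2%). The part of GC content in the promoter difference was not tested.

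Among restricted sites, left-out peaks gathered at these promoters. The share at promoter sites of other kinds was not counted, so the excess is not shown to be particular to restricted sites. A called but left-out Pou4f3 peak in iP+A or iGPA cells lay at 16.5% (13.4 to 20.1) of promoter and 3.61% (2.68 to 4.76) of distal restricted sites, a difference of 12.9 points (9.71 to 16.5). For left-out Atoh1 peaks the shares were 8.57% and 3.61%, a difference of 4.95 points (2.52 to 7.86). With all 184 such sites removed the promoter share of restricted sites was 23.8%. The summits of promoter restricted sites were also further apart, a median of 63 bp between iPou4f3 and iG+P cells against 29 bp at distal ones. Promoters were common among sites of the iPou4f3 list alone too, 38.7% (37.3 to 40.2) of 4556, but not among those of the iG+P list alone, 13.8% (13.1 to 14.5) of 9074. With peaks in iPou4f3 and iP+A cells only, the latter with Atoh1, the share was 41.4% (37.3 to 45.5) of 573 sites. With peaks in iPou4f3 and iGPA cells only it was 19.2% (16.0 to 22.7) of 558.

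The Pou4f pattern ATAATTAAT, with 1 mismatch allowed and on both strands, lay within the 250 bp around the summit of 888 restricted sites, 48.5% (46.2 to 50.8). In flanks of the same length 1000 bp to each side its share was 9.75%. Shared sites held it in 64.7% (63.4 to 66.0), and the difference was -16.2 points (-18.8 to -13.5). Most of it lay in the promoter set, where 12.5% (9.78 to 15.8) of restricted sites held the pattern, close to the 8.57% (6.91 to 10.5) of their flanks, against 48.5% of promoter shared sites, a difference of -36.0 points (-41.2 to -30.5). Distal restricted sites held it in 62.1% (59.5 to 64.7) and distal shared sites in 66.3% (64.9 to 67.7), a difference of -4.19 points (-7.15 to -1.28). Among distal sites with iPou4f3 fold enrichment under 3 the difference was -14.2 points (-20.9 to -6.98), from 3 to 4 it was -5.96 (-10.4 to -1.56), and at 4 or more -3.57 (-12.5 to 4.71), an interval that includes 0. With −log10 p of at least 10 asked of every list, the pattern was at 65.5% of the restricted sites so defined. It was 3.40 points more frequent there than at shared sites (-1.36 to 7.96), a difference that did not stand apart from 0. Under this cut a weaker listed peak counts as absent, so the sites are another set and not only a part of the restricted sites.

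The pattern without mismatch lay at 10.7% of restricted sites, 14.2% of shared sites and 0.38% of the flanks of restricted sites. The homeobox core TAATTA, which lies within that pattern, was at 23.7% of restricted sites, 30.0% of shared sites and 7.98% of the flanks, and at distal sites its shares were 30.1% and 30.6%, a difference of -0.46 points (-3.21 to 2.38). The octamer ATGCAAAT of other POU factors was at 2.08% of restricted sites and likewise of their flanks. Sites of 1 list alone held the pattern in 28.7% (27.4 to 30.0) for iPou4f3 and 39.0% (38.0 to 40.01) for iG+P, both below the restricted sites, and its share was 65.6% (63.7 to 67.5) at the 2506 sites that lacked the peak in iP+A cells alone. At the 718 sites that lacked it in iGPA cells alone the pattern was at 44.4% (40.8 to 48.1) and promoters at 32.5% (29.0 to 36.0). Restricted sites had 48.5% (46.2 to 50.8) and 27.4% (25.4 to 29.5), and no interval was computed for these differences.

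**Figure D3:**
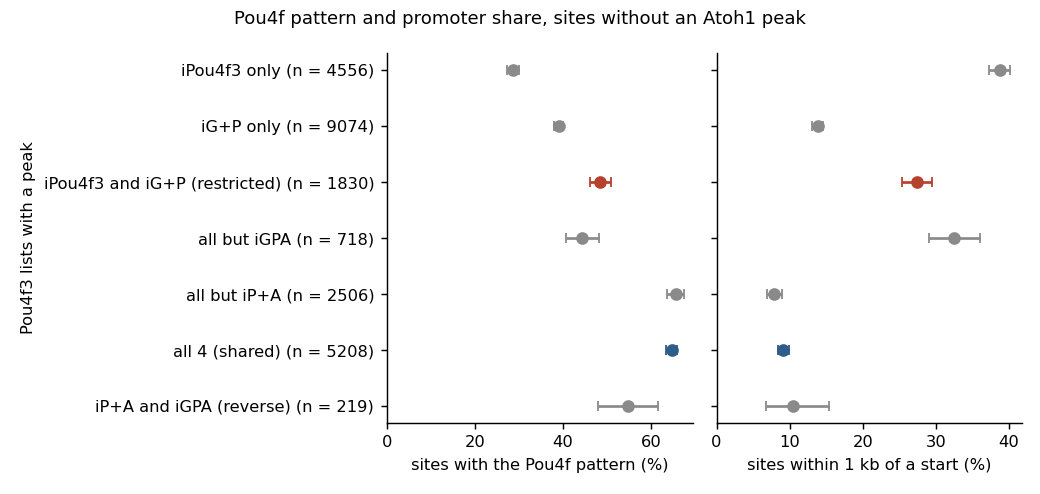
Share of sites with the Pou4f pattern (left) and within 1 kb of a transcription start (right), both in percent, for combinations of the Pou4f3 lists that held a peak at sites without an Atoh1 peak. Points are shares and bars exact 95% intervals; restricted sites (red) had 48.5% and 27.4%, shared sites (blue) 64.7% and 9.14%.

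Where a restricted site held the pattern, it lay a median of 20 bp from the iPou4f3 summit, and 58.9% (55.6 to 62.2) of these sites had it within 25 bp, where 21.1% of the possible positions lie. At shared sites the median was 12 bp and the share 73.8% (72.3 to 75.3). Reverse sites, measured from the iP+A summit, had the pattern within 25 bp in 48.3% (39.1 to 57.6).

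**Figure D4:**
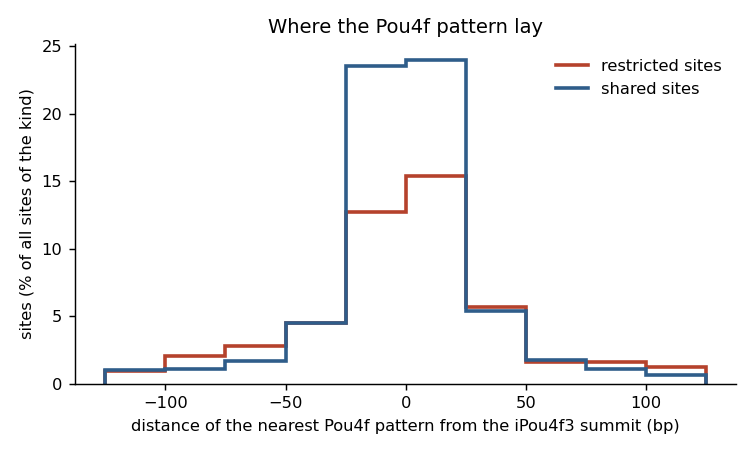
Distance in bp of the nearest Pou4f pattern from the iPou4f3 summit in bins of 25 bp (horizontal axis), as a percentage of all restricted sites (red) and all shared sites (blue). In the bins on each side of the summit lay 12.7% and 15.4% of restricted sites against 23.5% and 24.0% of shared sites.

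A second AT-rich element was found by counting words, so the shares that picked it are a description. Of all 8-letter words, ATAATGCA (TGCATTAT on the other strand) had the largest excess over flanks at shared sites, where 27.3% held it in 250 bp against 0.92% of flanks. Restricted sites held it in 9.84%, or 180 of 1830, and their flanks in 0.96%. The 6-letter words furthest below shared sites were AATAAT (49.1% against 74.1%), ATAATG (25.2% against 43.5%), GCATTA (18.9% against 36.5%), AATGCA (23.8% against 40.5%) and AATTAT (42.6% against 57.4%), the last of which lies in the Pou4f pattern. The share of TGCATTAT followed fold enrichment at both kinds of site. Among distal sites with iPou4f3 fold enrichment under 3 it was at 5.87% of restricted and 8.98% of shared sites, from 3 to 4 at 14.5% and 15.1%, and at 4 or more at 32.0% and 35.1%, and in each of these strata the interval of the difference included 0 (-3.11 points, -7.61 to 0.69; -0.55, -3.84 to 2.87; -3.10, -10.8 to 5.66). At distal sites of like enrichment this word was therefore not shown to differ. At promoters of any enrichment it lay at 1.59% of restricted and 10.3% of shared sites, a difference of -8.70 points (-11.9 to -5.84). The 8-letter word with the largest excess over flanks at restricted sites was another, ATTATTTA, at 19.3% of restricted and 27.3% of shared sites. Among distal sites its difference was -8.45 points (-15.5 to -1.56) at fold enrichment under 3, -6.99 points (-11.1 to -2.72) from 3 to 4 and -6.32 points (-12.6 to 1.68) at 4 or more.

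Part of these sites are copies of a longer shared sequence. The 12-letter word most often seen at shared sites, ATGAATAATGCA, contains the 8-letter word and lay at 656 of them (12.6%, 11.7 to 13.5) and at 52 restricted sites (2.84%, 2.13 to 3.71). The 20-letter word most often seen there, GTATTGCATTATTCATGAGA, lay at 347 shared sites (6.66%, 6.00 to 7.37) and 19 restricted sites (1.04%, 0.63 to 1.62), with none in the flanks of restricted sites. Among distal sites the difference of the 12-letter word had an interval that included 0 in each stratum of fold enrichment (-1.72 points, -4.58 to 0.21; -0.95, -2.80 to 1.07; -2.87, -8.13 to 4.45). That of the 20-letter word included 0 under 3 and from 3 to 4, and at 4 or more it was -5.14 points (-7.63 to -0.030). The 20-letter word occurs 774 times in the assembled chromosomes. A summit of the iPou4f3 list lay within 125 bp of 70.9% (67.6 to 74.1) of these copies, of iG+P of 78.2% (75.1 to 81.0), of iGPA of 73.6% (70.4 to 76.7) and of iP+A of 47.8% (44.2 to 51.4). The Pou4f pattern was rare beside the 12-letter word, at 3 of 52 restricted sites and 57 of 656 shared sites (8.69%). Among sites without that word, all positions together, the pattern was at 49.8% of restricted and 72.8% of shared sites. The difference was -23.0 points (-25.6 to -20.3), against -16.2 points over all sites. The Dpp6 and Gm17316 sites printed above carry the word on opposite strands. The authors removed reads of low mapping quality, which reads from near-identical copies can have, and the part of this filter in these shares was not tested.

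**Figure D5:**
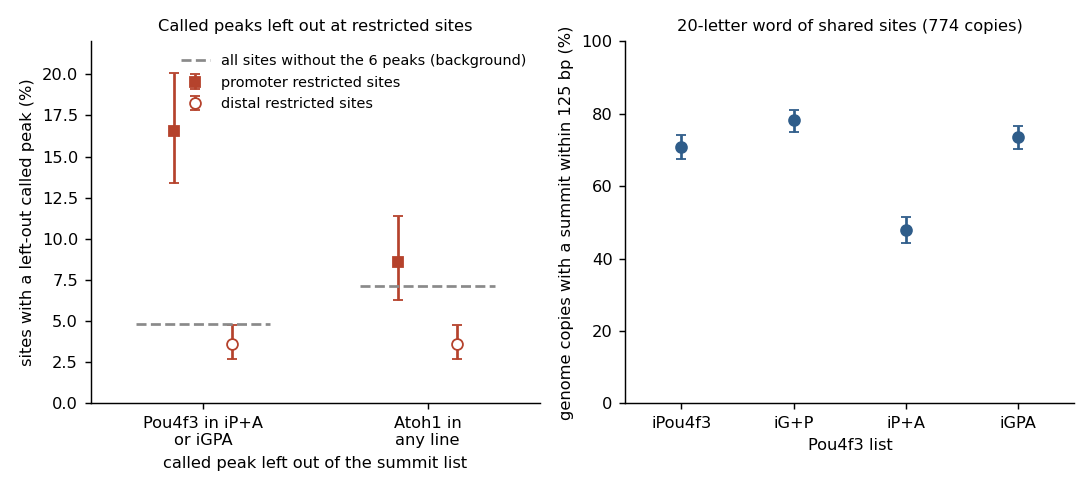
Left, share of restricted sites (percent, exact 95% intervals) with a called peak left out of the summit lists, for promoter sites (squares) and distal sites (circles). Dashed lines give the share over all sites lacking the 6 peaks, promoter and distal together. A left-out Pou4f3 peak lay at 16.5% of promoter and 3.61% of distal restricted sites. Right, share of the 774 genome copies of the 20-letter word with a summit within 125 bp in each Pou4f3 list, from 47.8% in iP+A to 78.2% in iG+P cells.

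E-boxes, the binding motifs of Atoh1 and other basic helix-loop-helix factors, were less frequent at restricted sites than in their flanks, a share to which the rule contributes since sites with Atoh1 peaks were removed. The AtEAM E-box, the extended motif described for Atoh1, was at 0.77% of restricted sites, 0.77% of shared sites and 1.56% of the flanks. CAGATG was at 12.1% of restricted, 13.8% of shared and 23.7% of reverse sites and 16.5% of the flanks, and CAGCTG at 6.34%, 7.53%, 14.2% and 9.92%. Both were less frequent at restricted than at reverse sites, by -11.7 points (-17.9 to -6.28) and -7.82 points (-13.2 to -3.64), although all these sites lacked an Atoh1 peak. The flanks of reverse sites held CAGATG in 19.4% and CAGCTG in 10.7%. Promoters were 27.4% of restricted and 10.5% of reverse sites, and the part of position in these differences was not tested. Restricted sites exceeded reverse sites in the AP-1 motif TGANTCA, at 6.94% against 2.28% (4.66 points, 1.52 to 6.47), while shared sites had it at 7.53%. The flanks of restricted sites held it in 6.69%, a difference of 0.25 points (-1.13 to 1.72), and those of reverse sites in 9.82%. The GATA, TEAD and Sox words differed from shared sites by intervals that included 0. The GATA word was at 14.9% of restricted sites and 15.2% of their flanks. By position the GATA word AGATAA was at 18.6% of distal restricted and 15.0% of distal shared sites (3.55 points, 1.29 to 5.95), and at 5.18% and 12.6% of promoter sites (-7.43 points, -11.1 to -3.89).

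Atoh1 peaks in the neighbourhood were slightly more common than at shared sites overall and not at distal sites. An Atoh1 summit of iGPA cells lay within 10 kb of 503 restricted sites, 27.5% (25.5 to 29.6), against 23.7% of shared sites (3.79 points, 1.48 to 6.17) and 34.7% of reverse sites. At distal sites the shares were 21.9% and 22.02%, a difference of -0.11 points (-2.56 to 2.47). At promoter sites they were 42.2% and 40.3%, a difference of 1.89 points (-4.27 to 8.03). Both intervals included 0, and promoter sites were 27.4% of restricted but 9.14% of shared sites. Within 1 kb the shares of all restricted and shared sites were 6.94% and 3.71%, and those of distal ones 2.33% and 2.43%. Those of promoter ones were 19.1% and 16.4%, a difference of 2.74 points (-2.07 to 7.51). The nearest Pou4f3 summit of iP+A or iGPA cells lay within 1 kb of 150 restricted sites (8.20%) and within 10 kb of 577 (31.5%).

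Gfi1 peaks of iGPA cells, whose presence the rule does not ask about though their windows were joined with the others, lay at 25 restricted sites, 1.37% (0.89 to 2.01), against 1.63% (1.31 to 2.01) of shared sites and 3.04% over all 47440 sites with any Pou4f3 peak. Those 47440 sites include sites with Atoh1 peaks, which restricted and shared sites lack by definition, so their share is not that of a like set. The difference from shared sites was -0.27 points (-0.85 to 0.45). By position, 3.19% of promoter restricted sites and 0.68% of distal ones had a Gfi1 peak, against 6.51% and 1.14% of shared sites, differences of -3.33 points (-6.18 to -0.63) and -0.46 points (-0.93 to 0.20). Those with the highest Gfi1 fold enrichment, 12.98, 10.8 and 8.58, lay within 1 kb of the starts of A730081D07Rik and Pak1ip1, of Sema5a, which encodes a semaphorin, and of Pex13, a peroxisomal import factor. Their Pou4f3 fold enrichments were between 2.61 and 2.89, they had no Pou4f pattern, and their iPou4f3 and iG+P summits were 326, 357 and 251 bp apart. At the first and second of these the Pou4f3 windows do not touch and were joined through the Gfi1 window. Joined without the Gfi1 windows, 2 restricted sites were lost and 2 gained, and the Gfi1 share was again 1.37%, -0.36 points from shared sites (-0.95 to 0.36). The Gfi1 word AATCACNGC was at 0.66% of restricted sites and 0.49% of the flanks.

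The restricted sites with the highest lower fold enrichment were 6 sites of which 5 held the Pou4f pattern. At chr13:46139424-46139732, 78961 bp downstream of the start of 5033430I15Rik, fold enrichments were 4.87 in iPou4f3 and 5.03 in iG+P cells, and a Pou4f3 peak left out of the list had been called in iGPA cells. At chr4:80975567-80975867, in an intron of Mpdz, a scaffold protein with many PDZ domains, they were 5.11 and 4.82. This site had no Pou4f pattern, and 97.2% of the positions of the printed sequence equalled the position 14 bp on, the length of the repeated unit. Its nearest iGPA Atoh1 and Pou4f3 summits were 311 and 367 bp away, and an Atoh1 peak left out of the iP+A list overlapped it.

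The other 4 were in introns. At Olfml1 (chr7:114712835-114713158) fold enrichments were 4.52 and 4.82, and at Lrch3 (chr16:32950547-32950866) 4.52 and 4.93, with listed Pou4f3 summits of iP+A and iGPA cells both 3848 bp away. In Cwc27, 446 bp upstream of 2610204G07Rik (chr13:105474415-105474728), they were 5.23 and 4.49, and in Acss3 (chr10:106392884-106393183) 4.40 and 4.49. Among sites with the pattern without mismatch, Uvrag, which has a role in autophagy, had fold enrichments of 3.92 and 4.16 and 2 matches 2 bp apart, and Dsp, which encodes desmoplakin of the desmosome, had 4.16 and 3.83. A site 71328 bp from the start of AC111029.2 (chr3:119612000-119612317) had 4.40 and 4.38, and one in Sytl3 3.92 and 4.71.

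By nearest transcription start, restricted sites were assigned to 1699 of 37273 annotated genes, 4.56%, and these were 18.7% of the 9081 genes nearest to any of the 14015 sites. Of 1699 genes, 1582 had 1 restricted site, 104 had 2, 12 had 3 and Pde4d, a cyclic AMP phosphodiesterase, had 4, with fold enrichments in iPou4f3 cells of 3.21, 4.99, 3.57 and 2.97. Pde4d also had 2 shared sites. Among those with 3 were Slit3, a repulsive guidance ligand, Plxna2, a semaphorin receptor, and Lmo4, a LIM-only cofactor. Med12l and Set had 3 restricted sites each and no other site with Pou4f3 peaks in both lines.

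Of 21 hair cell genes, 4 were nearest to a restricted site (Pvalb, Rasd2, Atoh1 and Ikzf2), out of 13 nearest to any of the 14015 sites. Of 19 annotated neuronal genes 3 were (Neurog2, Isl2 and Pou4f1), out of 12, and of 28 axon guidance genes 4 were (Slit3, Epha7, Efna5 and Plxna2), out of 22. Synaptic adhesion genes counted 5 of 22 (Nrxn3, Ntm, Opcml, Dpp6 and Magi2), out of 17, early mesoderm and endoderm genes 1 of 14 (Gata2), out of 5, and pluripotency genes 0 of 13, out of 6. These counts stand beside the 4.56% and 18.7% over all genes and are a description. A nearest start can be far away. Of the 4 hair cell genes only Pvalb had a restricted site within 10 kb of its start, and the 2 sites of Ikzf2 lay 241170 and 124010 bp from its start.

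Within 10 kb of the starts of 117 listed genes lay 8 restricted sites, each at another gene. The site 5978 bp downstream of the start of Pou4f1, the paralogue of Pou4f3 in sensory neurons, had fold enrichments of 3.09 in iPou4f3 and 3.17 in iG+P cells, no Pou4f pattern, and a Pou4f3 summit of iP+A cells 1659 bp away. Near Pvalb, a calcium buffer of hair cells and neurons, the site was 9593 bp upstream with 2.97 and 3.17 and the pattern without mismatch. At Neurog2, a proneural factor, the site was 6341 bp upstream with 2.73 and 2.96, and an iGPA Atoh1 summit lay 1339 bp from it. Efna5, an ephrin ligand, had 4.16 and 2.96 in an intron, with the pattern at 1 mismatch. Epha7, a receptor for such ligands, had 2.85 and 2.96. The Dpp6 site, near an auxiliary subunit of potassium channels, had 4.16 and 2.85 and carries the 20-letter word. At Isl2, a LIM homeodomain factor of motor neurons, the values were 3.57 and 2.63, and at Gata2, a blood and neuronal GATA factor, 3.09 and 2.96, both without the pattern and with GC contents of 61.6% and 62.4%. All 8 sites lay within the range of the other restricted sites, and none was among the highest.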

How the data were processed

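ChIP-seq peak lists of 9 combinations of line and antibody (17 ChIP and 12 input libraries) were analysed. Per the study's methods and the submitters' notes, the authors trimmed reads (Trimmomatic), aligned them to mm9 (Bowtie2), discarded duplicate, poorly mapped and blacklisted reads (Picard, SAMtools, bedtools), and called peaks with MACS2 on merged replicates. Versions were not given in the sources used here. The deposited fold enrichment is a ratio of fragments at the summit to local background, and the deposited −log10 p was computed by the peak caller for the same position. The score-like signal column of the summit lists, deposited without a definition, was not used. Of the called peaks, 14.1% to 35.5% were left out of the summit lists by a filter not stated.

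Peaks of the summit lists were joined in windows of 300 bp. Summit fragments and background were recovered from fold and −log10 p (tolerance 0.001), and library totals were not used here. Patterns were searched on both strands in 250 bp around the iPou4f3 summit (iP+A for reverse sites) and in flanks, in NCBIM37, the same assembly as mm9, in which 0 of 230433 peaks passed a chromosome end. Starts, genes and features are those of GENCODE vM1. Shares have exact Clopper-Pearson 95% intervals and differences Newcombe 95% intervals, both for counting error. No p-value was computed, since sites are not replicates. Named sites were the 6 with the highest lower fold enrichment, the 6 highest with the exact pattern, sites within 10 kb of listed genes, the genes with most sites and the 3 highest by Gfi1, on chromosomes other than 18 and Y. The sites, comparison sets and gene lists were chosen with earlier results of these data known, and the strata of fold, the split by position, the joining without Gfi1 windows and the 8-letter, 12-letter and 20-letter words were added after seeing the values. Joining, pattern search and intervals were tested on simulated data. Python 3.11.15, numpy 2.4.6, scipy 1.17.1, pandas 2.3.3 and pysam 0.24.0 were used. Of the genes with most sites, 1 is not reported here.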

Additional observations from a re-analysis of the deposited data

Results flagged for a closer look

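At 131 of the 1830 restricted sites, 7.16%, the full peak calls of iP+A or iGPA cells held a Pou4f3 peak that the summit lists leave out, above the 4.84% over all sites with none of the 6 absent peaks. It was singled out because it is a signal in peaks that the comparisons did not use. Of these, 83 sites were among the 502 promoter sites (16.5%) and 48 among the 1328 distal sites (3.61%). The share at promoter sites of other kinds was not counted. The reason for which the peaks were left out was not given in the sources used here.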

How the results depend on the processing

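The rule gave 603 sites with Pou4f3 lists of equal length and 478 with −log10 p of at least 10 in every list, where median fold enrichments were 3.33 and 4.16. Both cuts also drop weaker peaks from lists asked to hold none, so these sites need not be among the restricted sites reported above. The number of sites stayed within 1.5 times under the other 7 alternatives. The Pou4f pattern was at 52.6% of sites with 1000 bp windows, 65.5% with −log10 p of at least 10, 56.9% with equal lists, 52.9% with absence from all called peaks, 10.7% without mismatch and 36.9% in 100 bp, and its difference from shared sites turned to 3.40 points with −log10 p of at least 10. The promoter share was 29.6% with 100 bp windows, 21.6% with 1000 bp, 19.2% with −log10 p of at least 10, 19.7% with equal lists, 23.8% with absence from all called peaks and 41.6% within 5 kb, and its difference from shared sites kept its sign with an interval above 0 in all 11 alternatives. An Atoh1 summit within reach was at 32.4%, 20.4%, 12.97%, 24.5% and 25.2% in the same order without the last, at 62.0% within 50 kb and at 20.1% for the iP+A list. Its difference included 0 with 1000 bp windows (0.53 points), equal lists (0.54), absence from all called peaks (1.52), 50 kb (1.92), fold under 3 (4.89) and of 4 or more (1.48), and changed sign with −log10 p of at least 10 (-1.52), fold 3 to 4 (-0.67) and distal sites (-0.11). Left-out Pou4f3 peaks were at 5.77% with 1000 bp windows. Gfi1 peaks were at 0.42% with −log10 p of at least 10, and the difference, whose interval included 0 in all 12 alternatives, changed sign with 1000 bp windows (0.21), fold under 3 (0.35) and fold 3 to 4 (0.0058). Promoter sites alone, where it was -3.33 points (-6.18 to -0.63), were not among these alternatives. The cause of these changes was not tested, beyond the fewer peaks that the cuts leave.

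No paired analysis was possible because the lists merge replicates and carry no replicate numbers, and for the same reason no replicate could be left out. Depth limits absence: a site needed about 20 fragments at the usual background of 7.83 in iP+A cells and 17 at 5.87 in iGPA cells to be listed, and restricted sites had medians of 26 and 25 in the lists that held them.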
